A study of Homo sapiens with 8 samples.

Results

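The caveolins and cavins are the proteins that build caveolae, the flask-shaped pits of the plasma membrane. They were represented here by 6 genes, CAV1, CAV2, CAVIN1, CAVIN2, CAVIN3 and EHD2, out of 20046 genes named on the array. All probes that the platform annotation assigns to these symbols were taken, which gave 9 of the 47231 probes: 2 for CAV1, 3 for CAV2 and 1 for each of the other genes. Transcripts had been measured on Illumina BeadChips in the established lines A2780 and SKOV3, which derive from human ovarian cancers, kept at 37 °C as control or exposed to hyperthermia at 46 °C. Each of the 4 groups (A2780 at 37 °C, A2780 at 46 °C, SKOV3 at 37 °C and SKOV3 at 46 °C) held 2 arrays. No genetic change and no drug is named for any group. How long the cells were heated and when they were collected is not stated. Nor do the labels describe the 2 samples of a group as separate cultures. The p-values therefore set each difference against a spread between samples that may be technical. That spread was pooled over the 4 groups and moderated with the spread of all genes tested.

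In caveolae, caveolins insert into the inner leaflet of the membrane, bind cholesterol and assemble into oligomers, with CAV1 as the principal caveolin outside striated muscle and CAV2 as its partner. Cavins form a coat around the caveolin bulb. CAVIN1 is the obligatory coat protein, CAVIN2 binds phosphatidylserine and shapes membrane curvature, and CAVIN3 is an adaptor that binds protein kinase C delta. EHD2 is an ATPase that sits at the neck of the pit and restrains its movement away from the surface. Caveolae are abundant in endothelial cells, adipocytes, fibroblasts and smooth muscle, where they buffer membrane tension and host signalling receptors.

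The temperature labels were borne out by heat-inducible genes. HSPA6, a strictly heat-inducible HSP70, was 7.26 ± 0.13 higher at 46 °C in A2780 and 7.14 ± 0.13 higher in SKOV3. The values after ± are standard errors from the limma fit (n = 2 arrays per group), and the scale is normalized log2 intensity, which is used throughout unless a value is called a signal. HSPA1A, the main inducible HSP70, was at least 100.5-fold higher in A2780 and at least 60.5-fold higher in SKOV3. DNAJB1, an HSP40 that delivers clients to it, rose by 2.90 ± 0.13 and 3.26 ± 0.13. Here and below, a fold given as at least is the brighter group's mean over the background level, with no allowance for spread between arrays. The median signal of an array ran from 114 to 144, and 36.9% to 41.9% of probes lay above background, which on each array was the 99th percentile of the dim probes' distribution (123 to 154 signal units). A2780 control 2 was the brightest array, with an upper quartile of 317 against at most 243 on the others. Gene markers of the cell type labels were mixed. Of 9 epithelial markers, MUC1 and EPCAM were above background on 8 and 7 arrays and KRT18 on the 4 SKOV3 arrays, while KRT7, KRT8, CDH1, CLDN4 and PAX8 were above it on 0 of the 8 arrays. ERBB2, the receptor gene known to be amplified in SKOV3, was looked at as a check of the line labels, a choice made after its values were seen. Its brightest probe gave signals of 786, 1251, 537 and 499 in A2780 and 683, 671, 596 and 598 in SKOV3, and the other 2 probes were above background on 0 arrays. The difference between the lines was 0.10 ± 0.13 at 37 °C (adjusted p = 0.629) and 0.24 ± 0.13 at 46 °C (adjusted p = 0.212), and at 37 °C it turned to -0.57 with no normalization between arrays (adjusted p = 0.0350). This check did not bear out the label SKOV3, and the markers measured here do not settle the identity of the lines. The names A2780 and SKOV3 stand throughout for the libraries so labelled, and every difference between the lines depends on those labels. With so few arrays, precision is limited by their number.

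2 promoter windows carry the sequences of the members that differed between the lines and that the RefSeq table (GRCh38.p14) holds. They run from 250 bases before to 50 bases after the annotated start, 5′ to 3′, with capitals for the motif matches described after them. 4 of the 6 members had a window, in all 7 windows. CAVIN1 and CAVIN3 had no entry.
CAVIN2, chr2:191847039-191847338, minus strand: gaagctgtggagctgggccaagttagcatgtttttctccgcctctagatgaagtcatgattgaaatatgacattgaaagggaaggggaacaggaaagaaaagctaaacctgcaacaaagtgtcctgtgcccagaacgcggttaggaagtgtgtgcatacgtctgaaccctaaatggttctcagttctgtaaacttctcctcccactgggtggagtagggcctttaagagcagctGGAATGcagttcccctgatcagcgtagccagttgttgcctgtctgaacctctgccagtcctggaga
CAV2, chr7:116499488-116499787, plus strand: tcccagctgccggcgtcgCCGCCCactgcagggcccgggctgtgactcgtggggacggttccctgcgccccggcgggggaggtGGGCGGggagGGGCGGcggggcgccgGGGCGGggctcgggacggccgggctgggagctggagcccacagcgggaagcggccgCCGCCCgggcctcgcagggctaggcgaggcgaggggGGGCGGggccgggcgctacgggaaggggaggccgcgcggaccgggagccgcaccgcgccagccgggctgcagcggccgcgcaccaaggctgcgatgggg

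The CAVIN2 window held 5 CpG dinucleotides and 49.3% G or C, and 29.6% of the 35116 windows in the table held fewer CpG (median 14, with a median of 58.7% G or C). Its 1 match, in capitals, was GGAATG, the core of TEAD sites, 16 bases before the start. That motif occurred in 14.0% of all windows when both strands were searched. The first CAV2 window held 43 CpG and 82.7% G or C, well above the table's median. Its capitals mark 6 matches to the GC box GGGCGG, a motif present in 45.0% of windows. The 3 CAV1 windows held 19, 18 and 36 CpG with 3, 3 and 2 GC boxes, the second CAV2 window 33 CpG with 4, and the EHD2 window 30 CpG with 1. CAV1 is the protein-coding gene that follows CAV2 on chromosome 7. No member window held GAANNTTC or TTCNNGAA, the paired heat shock elements found in 6.77% and 7.74% of all windows, nor TGANTCA of AP-1 (7.71%) or TATAAA (11.5%). A match or its lack describes only these letters in these windows, and neither shows binding.

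**Figure D1:**
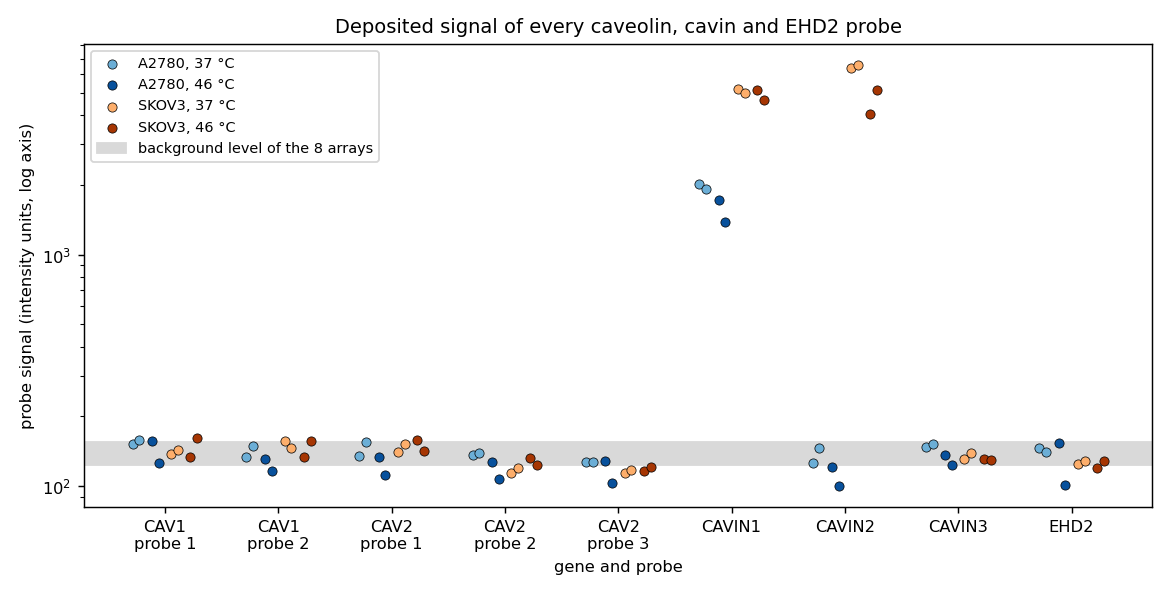
Deposited probe signal (intensity units, log axis) of all 9 probes on the 8 arrays, coloured by line and temperature, with the background levels of the arrays as a grey band (123 to 154). CAVIN1 lies far above the band in both lines, CAVIN2 lies far above it only in the 4 SKOV3 samples, and the other 7 probes lie in or next to the band.

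CAVIN1 and CAVIN2 differed between the lines, while CAVIN3 lay near background and was not called. CAVIN1, the obligatory coat protein, gave signals of 2017 and 1920 in A2780 at 37 °C, 1717 and 1377 in A2780 at 46 °C, 5210 and 4984 in SKOV3 at 37 °C, and 5114 and 4644 in SKOV3 at 46 °C. It was above background on all 8 arrays, and every SKOV3 signal exceeded every A2780 signal. After normalization its level was 10.45 ± 0.37 (SD, n = 2) in A2780 and 12.56 ± 0.017 in SKOV3 at 37 °C. The difference of 2.10 ± 0.16 is 4.30-fold (95% interval 3.40 to 5.43, adjusted p = 1.79e-07). At 46 °C CAVIN1 was 1.72 ± 0.16 higher in SKOV3, or 3.30-fold (2.61 to 4.17, adjusted p = 1.66e-06).

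CAVIN2, formerly SDPR, was the member that differed most. Its signal was 126 and 146 in A2780 at 37 °C and 121 and 99.9 at 46 °C. In SKOV3 the signals were 6395 and 6583 at 37 °C and 4037 and 5135 at 46 °C. No A2780 array was above background and all 4 SKOV3 arrays were, so that the lines did not overlap. CAVIN2 was at least 90.7-fold higher in SKOV3 at 37 °C (measured difference 6.73 ± 0.15, adjusted p = 1.66e-12) and at least 54.5-fold in heated cells (6.30 ± 0.15, adjusted p = 2.18e-12). In bulk samples, fewer cells with a transcript and less of it per cell cannot be told apart.

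The caveolin genes lay at the edge of detection. The CAV2 probe with the highest mean gave signals of 135 and 155 in A2780 at 37 °C, 133 and 112 in A2780 at 46 °C, 141 and 152 in SKOV3 at 37 °C, and 158 and 142 in SKOV3 at 46 °C. It was above background on 1 A2780 array and on all 4 SKOV3 arrays. Signals overlapped between the lines, but normalized values (6.22 to 6.37 in A2780 against 6.57 to 6.84 in SKOV3) did not. CAV2, which depends on CAV1 to leave the Golgi, was 0.40 ± 0.14 higher in SKOV3 at 37 °C (1.32-fold, adjusted p = 0.0470). At 46 °C it was 0.48 ± 0.14 higher, which with no A2780 array above background is at least 1.17-fold (adjusted p = 0.0231). Both calls rested on single arrays and on the scaling: at 37 °C the adjusted p passed in 6 of 21 alternatives (0.0297 to 1), and with the replicate number as a block it was 0.0604, while at 46 °C it passed in 13 of 21 (0.0127 to 1). Without A2780 hyperthermia 1 or 2 or SKOV3 hyperthermia 1, the adjusted p at 46 °C was 0.106, 0.0983 and 0.151. At 37 °C it passed without SKOV3 hyperthermia 1 (0.0303) or 2 (0.0310) and in none of the other 6 fits that left out 1 array, where it ran from 0.0599 to 0.315. The other two CAV2 probes (signals 107 to 139 and 103 to 129) were above background on 0 arrays. The former gave differences between the lines of -0.11 (adjusted p = 0.608) and 0.17 (0.406), and the latter fell below the filter on low values and was not tested.

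CAV1, the principal caveolin, gave signals with its brighter probe of 153 and 158 in A2780 at 37 °C, 157 and 126 in A2780 at 46 °C, 137 and 144 in SKOV3 at 37 °C, and 134 and 161 in SKOV3 at 46 °C. Signals of the lines overlapped, and the probe was above background on 7 of 8 arrays by a small margin. SKOV3 differed from A2780 by 0.15 ± 0.16 at 37 °C (95% interval -0.18 to 0.49, adjusted p = 0.538) and by 0.042 at 46 °C (adjusted p = 0.895). The second CAV1 probe was above background on 3 arrays, all SKOV3 (signals 157 and 147 at 37 °C and 156 for hyperthermia 2). Its A2780 signals at 37 °C were 134 and 149, so signals of the lines overlapped there. Normalized values at 37 °C (6.22 and 6.32 in A2780 against 6.82 and 6.74 in SKOV3) did not, and the bound that follows rests on these values near background. With no A2780 array above background it was at least 1.30-fold higher in SKOV3 at 37 °C (adjusted p = 0.0211 in a fit of every probe on its own), and it did not pass at 46 °C (adjusted p = 0.131). Thus 1 of the 2 CAV1 probes passed at 37 °C, and the difference between the probes was not tested.

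CAVIN3 and EHD2 were near background in both lines. The CAVIN3 signal, for the adaptor of protein kinase C delta, ran from 123 to 152 and passed background on 2 arrays, A2780 control 1 and SKOV3 control 2. EHD2, the neck ATPase, ran from 102 to 153 and passed on A2780 hyperthermia 1 alone. Their differences between the lines were 0.10 (-0.18 to 0.39, adjusted p = 0.623) and 0.016 (-0.37 to 0.40, adjusted p = 0.965) at 37 °C, with intervals that still allow changes of about the size seen for CAV2.

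At each temperature, 3 of the 6 members were higher in SKOV3 and 0 were lower, where 29.3% of all 14189 genes were called at 37 °C (15.6% higher and 13.8% lower) and 24% at 46 °C (12.3% higher and 11.8% lower). The members' median difference was 0.27 at 37 °C and 0.26 at 46 °C, against 0.0098 and 0.0047 for all genes. All 6 passed the filter on low values, a mean above 6.16, but CAVIN2 passed only through SKOV3 (mean 6.06 in A2780 and 12.57 in SKOV3). The counts and medians that include CAVIN2 are therefore given as a description. The CAVIN1 difference kept its sign and passed the test in all 21 alternatives at both temperatures. So did that of CAVIN2, the alternative with no filter included, but its p-values describe a gene that entered through the line in which it is high. The scaling of arrays moved the CAVIN1 value at 37 °C down to 1.40 with no normalization between arrays, a setting under which the median of all genes moved to -0.35.

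**Figure D2:**
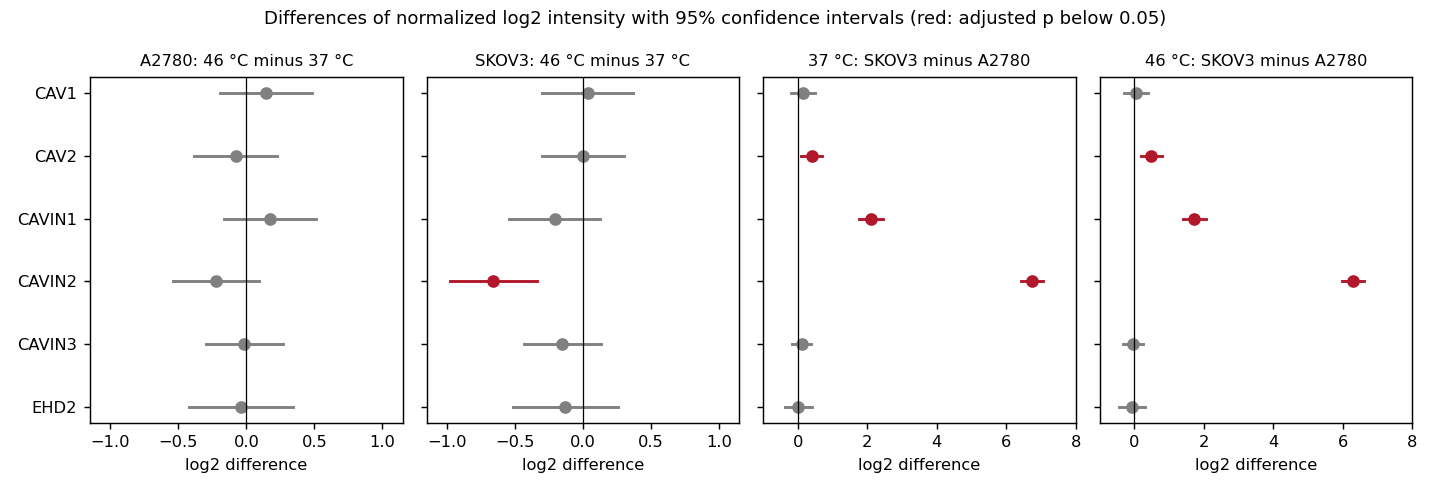
Differences of normalized log2 intensity for the 6 genes with 95% confidence intervals, in 4 panels (46 °C minus 37 °C in each line, SKOV3 minus A2780 at each temperature), red where the adjusted p was below 0.05. The horizontal scale of the line panels is wider than that of the temperature panels, and CAVIN2 is the member called in 3 of the 4 panels.

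The response to 46 °C was called for CAVIN2 in SKOV3. Its normalized values were 12.84 and 12.97 at 37 °C and 12.06 and 12.43 at 46 °C, so both heated samples lay below both controls. The fall of the group mean from 12.90 to 12.24 was a change of -0.66 ± 0.15 (95% interval -0.98 to -0.34, adjusted p = 0.0250), a ratio of 0.633 (0.507 to 0.789). 1 of 6 members was called in SKOV3, and 3.18% of all genes were (1.5% higher and 1.68% lower). The signals before normalization, 6395 and 6583 against 4037 and 5135, had the same order. With 2 arrays a group such an order says little: the normalized values of CAVIN3 in SKOV3 did not overlap either, at an adjusted p of 0.651. The share of all genes without overlap was not counted.

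The direction of the CAVIN2 change was the same in all 21 alternatives (-0.85 to -0.47), and the adjusted p passed in 12 of them (0.0104 to 1). It passed with the authors' log2 values (0.0213). It was lost with median scaling (0.171), with no normalization between arrays (0.419), against a minimum change of 2-fold (1) and in a fit of the 4 SKOV3 arrays alone (0.0615). Leaving out SKOV3 control 1 or 2 or SKOV3 hyperthermia 1 gave 0.132, 0.276 and 0.125, and leaving out A2780 hyperthermia 1 or 2 gave 0.0541 and 0.0525.

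**Figure D3:**
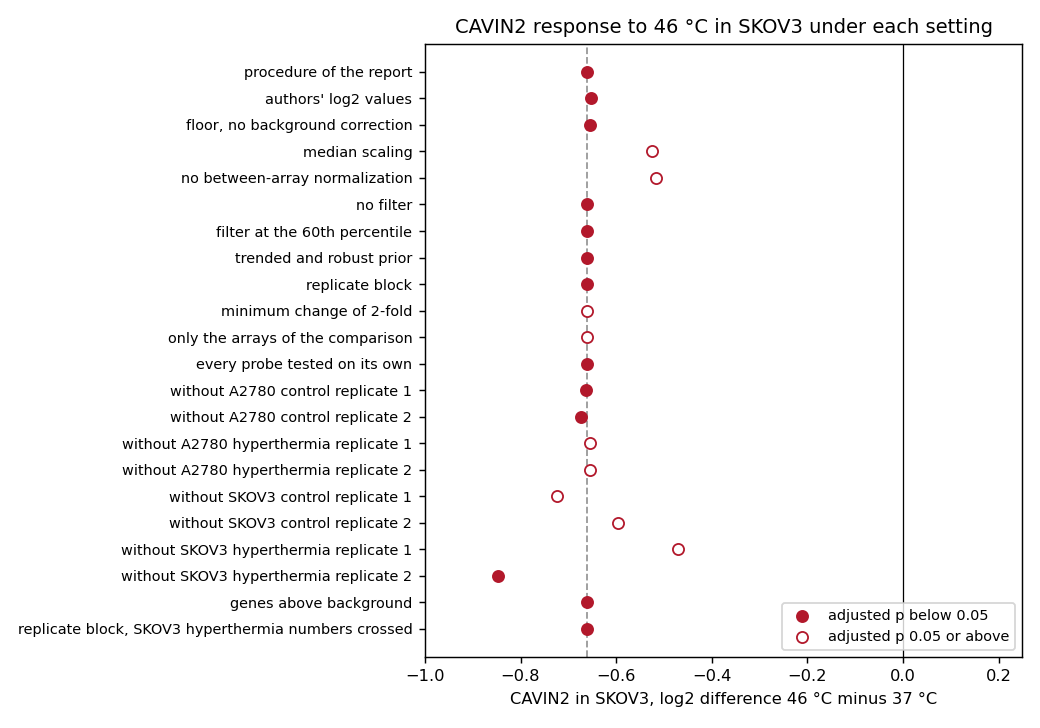
Change of CAVIN2 at 46 °C in SKOV3 (log2 difference, horizontal axis) under the reported procedure and 21 alternatives, with filled points where the adjusted p was below 0.05. All points lie below 0, between -0.85 and -0.47, and 12 of the 21 alternatives are filled.

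The other 5 members passed no test of temperature in SKOV3. CAVIN1 changed by -0.21 ± 0.16 (-0.55 to 0.13, adjusted p = 0.595), with normalized values of 12.54 and 12.57 at 37 °C and 12.39 and 12.30 at 46 °C. Those groups did not overlap, but the interval includes 0. CAV1 gave 0.036 (-0.30 to 0.37), CAV2 0.0028 (-0.30 to 0.31), CAVIN3 -0.15 (-0.44 to 0.13) and EHD2 -0.13 (-0.51 to 0.26), with adjusted p-values between 0.651 and 0.995. The median change of the 6 members was -0.14, against -0.023 for all genes.

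In A2780, 0 of 6 members passed at 46 °C, where 4.52% of all genes did (2.23% higher and 2.29% lower). At an unadjusted p below 0.05 none of the 6 passed, against 2568 of the 14189 genes. CAVIN1, the one member well above background in this line, had normalized values of 10.71 and 10.19 at 37 °C and 10.64 and 10.60 at 46 °C. The heated pair lies between the 2 controls, and the change was 0.17 ± 0.16 (-0.17 to 0.51, adjusted p = 0.629). Its sign depended on the scaling and on 1 array: it was -0.36 with no normalization between arrays, -0.25 with median scaling, -0.090 without A2780 control 2 and 0.43 without A2780 control 1. None of those alternatives passed the test. CAVIN2 was not above background on any A2780 array, so no fold is given there (measured change -0.22 ± 0.15, adjusted p = 0.480). CAV1 changed by 0.14 ± 0.16 (-0.19 to 0.48), CAV2 by -0.079 ± 0.14, CAVIN3 by -0.016 ± 0.13 and EHD2 by -0.039 ± 0.18, with values at the edge of detection.

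Whether the lines differed in their response was tested directly. The CAVIN2 response in SKOV3 minus that in A2780 was -0.44 ± 0.21 (-0.89 to 0.015, adjusted p = 0.594), with the A2780 side taken from values at background, so the fall called in SKOV3 was not shown to differ between the lines. For CAVIN1 the difference was -0.38 ± 0.22 (-0.86 to 0.098, adjusted p = 0.655). 0 of 6 members passed this test, which 0.0987% of all genes did (0.0282% higher and 0.0705% lower). The change common to both lines, from an additive model, was called for CAVIN2 alone among the members (-0.44 ± 0.12, adjusted p = 0.0386), where 7.01% of genes were called (3% higher and 4.02% lower). This average includes A2780 arrays on which the gene was not above background, and it passed in 9 of 20 alternatives. It did not pass without A2780 control 2 (0.0530), A2780 hyperthermia 2 (0.0771), SKOV3 control 1 (0.107), SKOV3 control 2 (0.153), SKOV3 hyperthermia 1 (0.0862) or SKOV3 hyperthermia 2 (0.0573).

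Genes that work beside caveolae were read from 5 lists. In A2780 and in SKOV3, 0 genes of any of these lists passed the test of temperature, where 4.52% and 3.18% of all genes did. The list medians farthest from 0 were -0.047 in A2780 (caveolin partners) and -0.10 in SKOV3 (flotillins and their relatives). With no normalization between arrays or with median scaling, up to 8 clathrin genes and 8 cholesterol genes were called lower in A2780. The median of all genes there moved to -0.39 and -0.28, and 5183 and 4395 of them were called lower. The common response called AP2B1 (0.41 ± 0.10, adjusted p = 0.0186), a clathrin adaptor subunit, PICALM (0.53 ± 0.15, adjusted p = 0.0473), which recruits clathrin to membranes, and INSIG1 (0.51 ± 0.10, adjusted p = 0.00698), a sterol-regulated brake on cholesterol synthesis. These 3 were singled out after their values were seen, and 7.01% of all genes were called in the common response.

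Between the lines the lists did contain called genes, in both directions. Of all genes, 29.3% were called at 37 °C and 24% at 46 °C, and the list counts are a description beside those shares. Of 7 tested relatives of the caveola machinery (8 listed), 2 were higher in SKOV3 and 2 lower at each temperature. EHD4, an ATPase of the same family as EHD2, was 1.01 ± 0.15 higher at 37 °C (adjusted p = 0.000187) and 0.96 higher at 46 °C. EHD1, which drives endocytic recycling, was 0.73 ± 0.16 higher at 37 °C (adjusted p = 0.00379). It was not called at 46 °C, where the 2 genes called higher were EHD4 and PACSIN1. PACSIN3, a membrane-bending F-BAR protein, differed by -0.72 ± 0.14 at 37 °C (adjusted p = 0.00173) and by -0.43 ± 0.14 at 46 °C (adjusted p = 0.0426). PACSIN1, its neuronal relative, was above background in no A2780 sample at 46 °C and at least 1.25-fold higher in SKOV3 (adjusted p = 0.0354). FLOT2, a flotillin that scaffolds membrane rafts without caveolae, was the 1 gene of 5 in its list to pass (0.78 ± 0.14 and 0.65 ± 0.14, adjusted p = 0.000881 and 0.00368). The EHD1 and FLOT2 calls at 37 °C were lost with no normalization between arrays (adjusted p = 0.889 and 0.616).

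**Figure D4:**
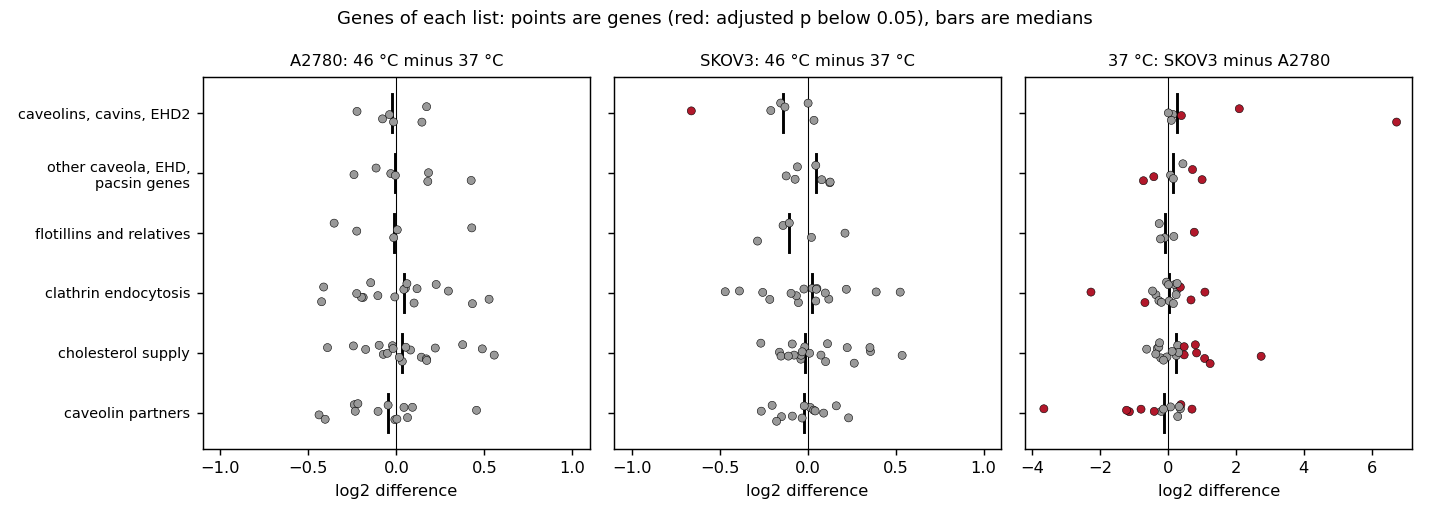
Log2 differences of the tested genes of 6 lists (rows) for 46 °C minus 37 °C in A2780 and in SKOV3 and for SKOV3 minus A2780 at 37 °C, with 1 point per gene, red where the adjusted p was below 0.05, and bars at the list medians. CAVIN2 in SKOV3 is the single red point of the temperature panels, and the line panel has red points on both sides of 0.

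Clathrin-coated pits are the other main route of uptake. Of 17 tested genes (19 listed), 3 were higher and 2 lower in SKOV3 at 37 °C, and 1 and 2 at 46 °C. With median scaling or no normalization between arrays, 8 were lower at 37 °C. FCHO1, an early nucleator of coated pits, was not above background in SKOV3 and was at least 4.13-fold higher in A2780 at 37 °C (measured difference -2.26 ± 0.18, adjusted p = 3.48e-07). CLTB, a clathrin light chain, was 1.09 ± 0.14 higher in SKOV3 (adjusted p = 4.15e-05) and EPN1, an epsin that bends the membrane, 0.68 ± 0.16 higher (adjusted p = 0.00458). DNM1, the neuronal dynamin, was at least 1.21-fold higher in A2780 (-0.67 ± 0.18, adjusted p = 0.0114). The DNM1 call was lost without A2780 control 2 (0.0989) or SKOV3 control 1 (0.186), and that of EPN1 without A2780 control 2 (0.0517) and with median scaling (0.470).

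Caveolae need cholesterol. Of 24 listed genes of cholesterol supply, 19 had a named probe and were tested: 7 were higher and 0 lower in SKOV3 at 37 °C, and 4 and 1 at 46 °C, with medians of 0.25 and 0.11. Across the alternatives the 37 °C counts ran from 1 to 7 higher and from 0 to 8 lower, the 8 with median scaling and with no normalization between arrays, so the list had no stable direction. TM7SF2, a sterol reductase, was 2.75 ± 0.13 higher (adjusted p = 1.45e-09) and passed in all its alternatives. STARD4, a carrier of cholesterol between membranes, was 1.25 ± 0.16 higher (adjusted p = 4.81e-05). DHCR7 and MSMO1, enzymes of late sterol synthesis, were 1.08 ± 0.13 and 0.85 ± 0.12 higher (adjusted p = 2.21e-05 and 0.000152), but MSMO1 not with median scaling (adjusted p = 0.167), nor DHCR7 with no normalization between arrays (0.111).

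Receptors, kinases and other proteins reported to bind caveolin made up the last list, with 13 of 14 genes tested. At 37 °C 2 were higher and 5 lower in SKOV3, and at 46 °C 0 were higher and 3 lower. The shares of all genes were 15.6% and 13.8% at 37 °C, and 12.3% and 11.8% at 46 °C. NOS3, the endothelial nitric oxide synthase that CAV1 holds inactive in endothelium, was at least 9.32-fold higher in A2780 at 37 °C, with no SKOV3 array above background (-3.65 ± 0.15, adjusted p = 2.66e-10). TGFBR2, a TGF-beta receptor, was at least 2.12-fold higher in A2780 (-1.22 ± 0.13, adjusted p = 5.73e-06) and PDGFRB, a PDGF receptor, at least 1.72-fold (-1.13 ± 0.15, adjusted p = 7.92e-05). IGF1R, the IGF1 receptor, was at least 1.16-fold higher in A2780 (-0.79 ± 0.15, adjusted p = 0.00109). The 2 genes called higher in SKOV3, named after their values were seen, were PRKCD, the kinase that CAVIN3 binds (0.71 ± 0.15, adjusted p = 0.00279), and INSR, the insulin receptor gene, which was not above background in either group at 37 °C.

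Among markers of cell types rich in caveolae, those of fibroblasts were mostly lower in SKOV3 and those of smooth muscle were mixed. Most of those of endothelium and adipocytes were above background on 0 arrays. Of 7 fibroblast markers, all were above background on both arrays of each A2780 group, and their summed level was 15220 to 16225 in A2780 against 1027 to 1128 in SKOV3 (normalized intensity, linear scale). At 37 °C DCN, a matrix proteoglycan, was at least 53.3-fold higher in A2780, COL1A2 at least 3.79-fold and PDGFRA at least 1.24-fold. LUM, a relative of DCN, differed by -5.87 ± 0.14 (SKOV3 minus A2780), COL3A1 by -4.18 ± 0.17 and THY1 by -0.83 ± 0.13. All 6 had an adjusted p no higher than 0.00184. COL1A1 rose in A2780 at 46 °C (0.84 ± 0.14, adjusted p = 0.00356) and its difference between the lines at 46 °C was -0.61 ± 0.14. Of 6 smooth muscle markers, ACTA2 (-2.36 ± 0.14) and CNN1 (at least 2.11-fold) were lower in SKOV3 at 37 °C and TAGLN was higher (0.68 ± 0.14), though TAGLN not with median scaling (adjusted p = 0.628), and MYH11, DES and LMOD1 were above background on 0 arrays. CAVIN1 and CAVIN2 were higher in the line with the lower fibroblast levels. The part of these markers in the CAVIN1 and CAVIN2 differences was not tested.

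Of 9 epithelial markers, EPCAM (1.20 ± 0.16) and KRT18 (at least 2.60-fold) were higher in SKOV3 at 37 °C, with summed levels of 759 to 844 in A2780 and 1106 to 1236 in SKOV3. Of 8 endothelial markers, CDH5, VWF, KDR, TEK and CLDN5 were above background on 0 arrays, PECAM1 on 1, ESAM on 5 and EGFL7 on 7. The group means of EGFL7 ran from 6.45 to 6.90. The summed level of the list was 549 to 584 in A2780 and 590 to 647 in SKOV3. ESAM was at least 1.18-fold higher in SKOV3 at 37 °C (adjusted p = 0.00404). Of 5 adipocyte markers, ADIPOQ, PLIN1 and CIDEC were above background on 0 arrays, FABP4 on 2 and LEP on all 8, with LEP group means of 10.06 to 10.90. LEP, the leptin gene, rose by 0.76 ± 0.14 at 46 °C in SKOV3 (adjusted p = 0.00693) and was -0.48 ± 0.14 in SKOV3 against A2780 at 37 °C. KRT19 and FABP4 also passed between the lines at 46 °C, but the dimmer group was not above background and no lower bound above 1 could be given. KRT19 passed the filter only through SKOV3 and FABP4 only through A2780. The summed level of the 5 adipocyte markers rose with LEP, from 1346 and 1365 to between 1864 and 2313 in SKOV3. In A2780 it was 1752 to 1791 at 37 °C and 2144 to 2276 at 46 °C. PTPRC and CD3E, which mark leukocytes, were above background on 0 arrays. CD14, a co-receptor for bacterial lipopolysaccharide, was at least 7.10-fold higher at 46 °C in A2780 and at least 5.28-fold in SKOV3. The summed level of 6 leukocyte markers in SKOV3 was at most 1412 at 37 °C and at least 2130 at 46 °C. CD68 was lower in SKOV3 at 37 °C (-0.37 ± 0.13), and ITGAM at 46 °C (adjusted p = 0.0204), where it was not above background in SKOV3. CD14 and LEP rose in the same samples in which CAVIN2 fell, and their part in that fall was not tested.

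The profiles most like those of the 2 cavins that varied were sought among 13978 genes, as the smallest root-mean-square difference of centred log2 values over the 8 arrays. For CAVIN1 these were KIFAP3 (0.0748), a kinesin-associated protein, ATP6V0E2 (0.0923), a subunit of the vacuolar proton pump, and PLK2 (0.104), a polo-like kinase. KIFAP3 stood at 7.89 in A2780 and 10.10 in SKOV3 at 37 °C, ATP6V0E2 at 9.55 and 11.66, and PLK2 at 6.43 and 8.58. For CAVIN2 the nearest were ISL1 (0.411), a LIM-homeodomain transcription factor, CLDN1 (0.434), a tight-junction claudin, and MID1 (0.435), a microtubule-associated ubiquitin ligase. ISL1 stood at 7.36 in A2780 and 13.40 in SKOV3 at 37 °C, CLDN1 at 5.99 and 11.78, and MID1 at 6.28 and 12.04. At 46 °C in SKOV3 these 3 genes had means of 13.21, 11.57 and 11.99, so none of them differed between temperatures there by as much as CAVIN2 did. The 8 arrays fall into 2 lines, and this likeness is mostly that of a difference between the lines.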

How the data were processed

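Total RNA of 8 samples was labelled and hybridised to Illumina BeadChips, per the labels. The deposited signal table holds linear probe intensities as exported by the authors with BeadStudio, per the submitters' processing notes, without background subtraction or normalization between arrays. A second deposited table holds the authors' log2 values, which lie within 0.0246 of quantile-normalized log2 signals. Its steps are not given in the sources used here, and it served as an alternative. The files name no genome build, so coordinates come from the RefSeq promoter table alone.

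Signals were corrected with normexp (offset 50), quantile-normalized and log2-transformed in limma 3.58.1 (R 4.3.3). Probes were named from the platform annotation: 30113 had 1 symbol, 8 several and 17110 were not listed. Of 30121 listed probes, 30074 matched a gene identifier. Probes with a mean above the 40th percentile (6.16) were kept (28338), and each gene was read from its kept probe of highest mean. This gave 14189 genes, of which 4032 had over 1 kept probe. 8 of the 9 caveolin and cavin probes were kept. A probe's level was not set against another probe's.

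A linear model with 4 groups (4 residual and 9.39 prior degrees of freedom) and an additive model for the common response were fitted to all arrays. Tests were two-sided, with Benjamini-Hochberg adjustment over all genes and a threshold of 0.05. A fold against a group with no array above background is a lower bound, taken from the brighter group's mean against the lowest signal above background. It allows for the unmeasured level of the dimmer group and not for sampling error. The named genes are the 6 members, HSPA1A, HSPA6 and DNAJB1, up to 4 called genes with the largest changes of each pathway list, called markers and, for members whose group means span at least 1, the 3 nearest profiles. The members and lists were chosen with earlier results of these data known. ERBB2 was added as a check of the line labels after its values were seen. In simulated data for the SKOV3 response over 14189 genes, 48% of changes of 0.5 and 100% of changes of 1 were recovered, with 15 false calls. The simulation added independent noise to normalized values, so it holds no error from single arrays or from scaling. Alternatives were the authors' values, a floor of 16, median scaling, no normalization, other filters, a trended prior, a replicate block, a 2-fold minimum, only the arrays compared, every probe on its own, and each array left out. A filter on background and a block with crossed SKOV3 numbers were chosen after seeing the data.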

Additional observations from a re-analysis of the deposited data

How the results depend on the processing

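Each comparison was repeated under up to 21 alternatives. The count of members called at 46 °C in SKOV3 fell from 1 to 0 with median scaling, no normalization between arrays, a minimum change of 2-fold and only the arrays of the comparison, and without 1 array it ran from 0 to 1. The common response fell from 1 to 0 with the authors' log2 values, the floor, median scaling, no normalization between arrays and the 2-fold minimum, and without 1 array it too ran from 0 to 1. The cause was not tested. In A2780, and for the difference of responses, the count stayed at 0. Between the lines it was 3 in 6 and 2 in 15 of 21 alternatives at 37 °C, and 3 in 13 and 2 in 8 at 46 °C, with CAV2 the gene lost. The 8 member results that passed kept their sign in all 167 alternatives and passed in 124. The 28 that did not pass were tested in 559 alternatives, passed in 0 and changed sign in 43. With the replicate block (the replicate number as a factor) the CAVIN2 fall in SKOV3 had an adjusted p of 0.0227, and the CAV2 call at 37 °C was lost (0.0604). The numbers were not treated as pairs, since deviations of equally numbered samples did not all correlate above 0.1: they correlated at 0.073 within A2780, -0.25 within SKOV3, 0.18 between the controls of the lines, 0.29 between their heated groups, and -0.26 and -0.073 across both line and temperature. With the SKOV3 hyperthermia numbers crossed, 1 member was called at 46 °C in SKOV3 and 3 between the lines at each temperature. Of 1540 alternatives for 74 results of other named genes that had passed as reported, 1410 passed with the same direction and 0 were reversed. The ERBB2 difference between the lines had not passed and is not among them. ERBB2 between the lines at 37 °C reversed with no normalization between arrays (-0.57, adjusted p = 0.0350) and was below 0, without passing, with median scaling and without A2780 control 1; the cause was not tested. Over all genes, the counts called ran from 62 to 5311 in A2780 (641 as reported), 40 to 608 in SKOV3 (451), 0 to 132 for the difference (14), 53 to 1209 in common (995), 447 to 6033 between the lines at 37 °C (4163) and 412 to 3724 at 46 °C (3408), each lowest count with the 2-fold minimum. With no normalization between arrays the split of higher against lower was 128 to 5183 in A2780, against 316 to 325 as reported, 126 to 66 in SKOV3 (213 to 238), 119 to 597 in common (425 to 570) and 563 to 5470 between the lines at 37 °C (2210 to 1953). With median scaling it was 189 to 4395, 150 to 115, 167 to 1042 and 794 to 4815. For CAV1, CAV2, CAVIN3 and EHD2, signals near background limit what can be measured.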
